A study of Mus musculus with 6 samples.

Results

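The 35 genes described here encode enzymes and membrane proteins of the lysosome. They were taken by symbol from a list of named genes with no cutoff on any value, though the list was drawn up with earlier results of these data known. All 35 were found among the 34866 gene identifiers of the table of estimated read counts, and all 35 had enough counts to be tested, out of 13718 tested genes. The counts come from RNA sequencing of livers of 8-week-old male C57BL/6 mice in 2 groups of 3 libraries. The first group received iD1, for which the labels give a code name alone, and the second group is named vehicle in the sample titles and untreated in the treatment label. The labels give intraperitoneal injection of a drug, free access to food and water and a 12-hr light-dark cycle, but no dose, time or target of iD1. Nor do they state whether each library stands for its own mouse, so that p-values measure the spread between these libraries, which may be technical. One vehicle column carries a number that no sample title has and is called the unnumbered vehicle replicate.

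Library totals ran from 23515571 to 35207596 estimated counts in iD1 livers and from 27160894 to 37613549 in vehicle livers. The first principal component (56.8% of the variance) set the groups apart, and on it iD1 replicate 1 lay nearer to the vehicle libraries than iD1 replicates 2 and 3 did. Hepatocyte markers were abundant in each library, with summed levels of 107600 to 124400 CPM (counts relative to the library's total, adjusted by TMM) in iD1 livers and 83340 to 111600 CPM in vehicle livers for 12 markers. A gene was called at an adjusted p under 0.05 (quasi-likelihood test of edgeR, Benjamini-Hochberg adjusted), which 16.7% of the tested genes reached, 8.42% higher and 8.30% lower with iD1.

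Lysosomes are acidic compartments in which proteins, glycans and lipids that arrive by endocytosis or autophagy are broken down. Most of their soluble hydrolases are made in the endoplasmic reticulum, tagged with mannose 6-phosphate in the Golgi and sorted to lysosomes, where a proton pump, the V-ATPase, holds the pH low. Many lysosomal genes share a promoter element, the CLEAR element, that is bound by TFEB and its relatives, transcription factors whose entry into the nucleus is restrained by mTORC1 at the lysosomal surface. In the liver both hepatocytes and the resident macrophages, the Kupffer cells, are rich in lysosomes.

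Promoter windows were taken from RefSeq on GRCm38.p6 and run from 250 bases before to 50 bases after the annotated start of transcription. They were matched by symbol for 31 of the 35 genes. The windows were searched on both strands for 3 nested stretches from the core of the CLEAR element, TCACGTGA, TCACGTG and CACGTG, so that a longer match also counts as each shorter one. The heptamer TCACGTG stood in the windows of 10 of the 31 genes, which is 32.3%, against 4.29% of 27025 genes with a window and 6.79% of the 10173 of these that were tested. The octamer TCACGTGA stood in 4 of the 31, which is 12.9%, against 1.12% of all genes and 2.1% of tested genes. CACGTG stood in 12 of the 31, which is 38.7%, against 8.09% of all genes and 11.3% of tested genes. These are descriptions of letters in a window, not of binding. The 4 called genes come first below, followed by 4 further genes whose windows hold several copies or the octamer. Capitals mark CACGTG extended to the heptamer or octamer where those letters are present, positions count back from the RefSeq start with -1 as the base before it, and only bases before the start are printed.
Ctsl, chr13:64370521-64370770, minus strand, -250 to -1: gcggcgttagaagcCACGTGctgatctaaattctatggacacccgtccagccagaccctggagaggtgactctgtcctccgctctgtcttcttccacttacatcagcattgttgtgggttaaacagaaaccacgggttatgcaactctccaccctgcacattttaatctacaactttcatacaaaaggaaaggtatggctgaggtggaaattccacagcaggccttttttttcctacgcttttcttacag
Gaa, chr11:119267713-119267962, plus strand, -250 to -1: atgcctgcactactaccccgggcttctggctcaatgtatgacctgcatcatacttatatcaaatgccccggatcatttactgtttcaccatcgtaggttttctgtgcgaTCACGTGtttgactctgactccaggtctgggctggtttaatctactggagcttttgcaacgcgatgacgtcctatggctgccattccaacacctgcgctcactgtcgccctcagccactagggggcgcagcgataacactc
Ctsa, chr2:164833623-164833772, plus strand, -150 to -1: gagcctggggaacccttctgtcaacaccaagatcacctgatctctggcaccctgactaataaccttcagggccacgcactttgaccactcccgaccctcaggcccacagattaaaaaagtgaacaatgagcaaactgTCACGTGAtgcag
Lipa, chr19:34527475-34527724, minus strand, -250 to -1: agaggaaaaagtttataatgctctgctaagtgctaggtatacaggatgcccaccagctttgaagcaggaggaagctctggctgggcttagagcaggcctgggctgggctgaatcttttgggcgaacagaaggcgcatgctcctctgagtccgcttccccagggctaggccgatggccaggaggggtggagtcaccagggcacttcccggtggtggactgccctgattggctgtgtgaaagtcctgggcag
Lamp1, chr8:13159081-13159160, plus strand, -80 to -1: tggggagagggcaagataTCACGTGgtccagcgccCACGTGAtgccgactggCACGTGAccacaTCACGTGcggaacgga
Mcoln1, chr8:3500429-3500518, plus strand, -90 to -1: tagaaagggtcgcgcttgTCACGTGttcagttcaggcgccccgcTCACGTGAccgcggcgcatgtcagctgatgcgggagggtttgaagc
Ctsd, chr7:142387898-142387957, minus strand, -130 to -71: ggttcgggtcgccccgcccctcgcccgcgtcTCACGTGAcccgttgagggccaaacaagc
Gla, chrX:134601176-134601255, minus strand, -250 to -171: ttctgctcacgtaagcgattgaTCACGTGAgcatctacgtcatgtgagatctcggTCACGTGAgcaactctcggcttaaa

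Lamp1 showed 4 copies of the heptamer or its reverse complement within 80 bases of the start. In Ctsa the octamer began at -13, and a further copy began at position 5 of the transcribed part. The Ctsl window held only CACGTG, far from the start at -236, and the Lipa window held none of the 3 stretches. RefSeq gives Ctsa a further start upstream, whose window held none of them either. The Ctsl bases printed lie wholly inside the gene as the GENCODE M21 annotation places it, from 64359337 to 64370890 on the minus strand. Bases before that outer end were not searched, so the lack of the heptamer in Ctsl holds for the RefSeq window only. The bases printed for Ctsa and Ctsd also lie wholly inside their genes, whose outer ends GENCODE M21 places at 164832873 and 142388038. Those printed for Gaa and Mcoln1 lie partly inside theirs.

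Of the 35 genes, 3 rose and 1 fell with iD1. Those that rose were Ctsl, which encodes the cysteine protease cathepsin L, Gaa, which encodes the acid alpha-glucosidase that breaks down glycogen in lysosomes, and Ctsa, which encodes cathepsin A, a carboxypeptidase that also protects beta-galactosidase and neuraminidase. The gene that fell was Lipa, which encodes the acid lipase that splits cholesteryl esters and triglycerides delivered to lysosomes. These are 8.57% called higher and 2.86% called lower among the 35, beside 8.42% and 8.30% of all tested genes, so that the share called higher was near the background. The count called higher was 1 when the unnumbered vehicle replicate was left out (background 4.27%) and also 1 when iD1 replicate 2 was (5.71%), and 4 without iD1 replicate 1 (8.45%). DESeq2 called 6 higher (9.34% of its genes), adding Ctsz, Hexa and Npc1. Group values did not overlap in 11 genes that lay higher with iD1 (31.4%, against 18.5% of all tested genes) and in 2 that lay lower (5.71%, against 18.7%). The median log2 fold change of the 35 genes was 0.23, against 0.00 over all tested genes, and 29 of the 35 values were above 0 (82.9%, against 50.1% of all tested genes). Scaling by library size only moved the median of all genes to -0.20 and that of the 35 genes to 0.02, with 18 of 35 above 0. In that fit 1 of the 35 was called higher (4.35% of all) and 2 lower (13.7%). The gap between the medians stayed at 0.23. Scaling factors shift all genes by nearly the same amount, so this gap cannot serve as a check on the scaling. No test was made over the list.

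**Figure D1:**
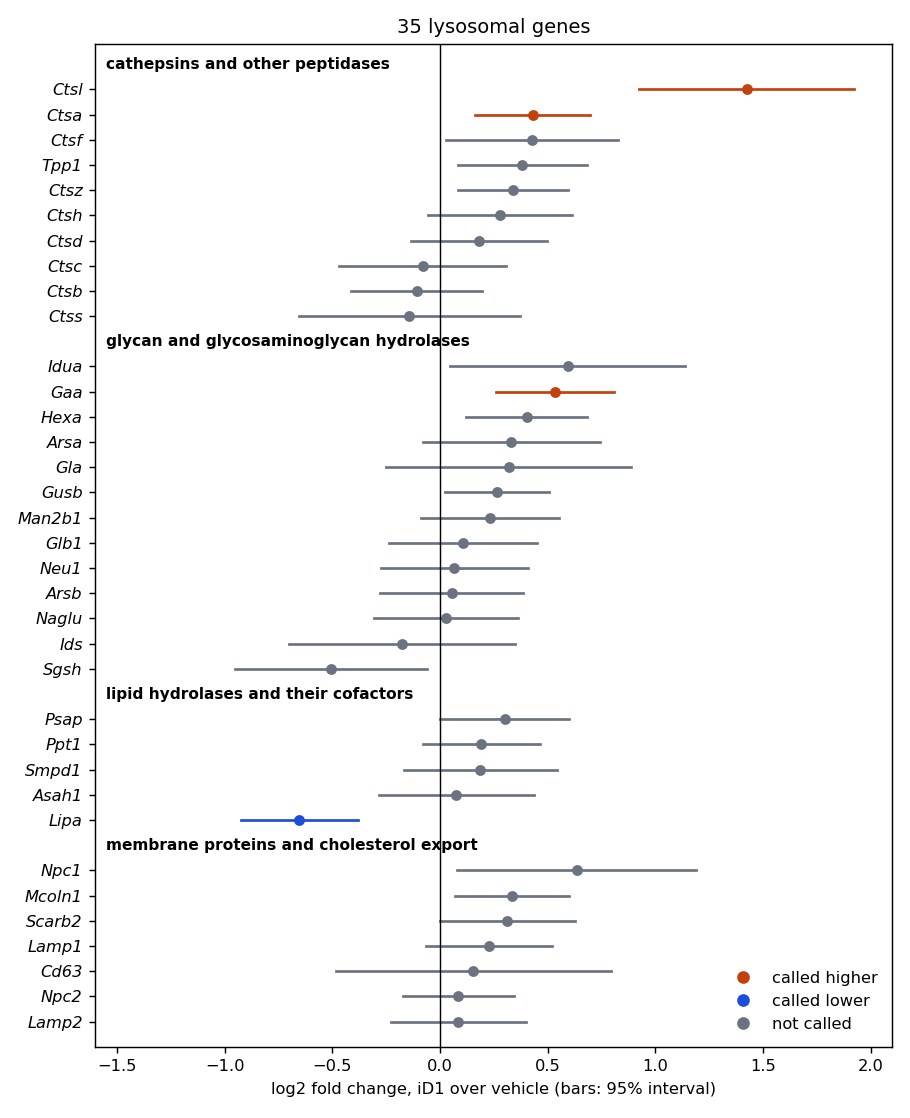
Log2 fold change of iD1 over vehicle (x axis) for each of the 35 lysosomal genes, grouped by role and ordered by size within a role, with points for the edgeR estimate and bars for its 95% interval, not adjusted for the number of genes. Ctsl stands apart at 1.42 and Lipa lies lowest at -0.65, while 29 of the 35 genes have a log2 fold change within 0.5 of 0.

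Among the peptidases, Ctsl (ENSMUSG00000021477, a protein-coding gene on chromosome 13 from 64359337 to 64370890 in GENCODE M21 on GRCm38) measured 584, 1015 and 1052 CPM in iD1 livers, against 318, 316 and 355 CPM in vehicle livers. Every iD1 library lay above every vehicle library, with iD1 replicate 1 nearest to them. The log2 fold change was 1.42 (SE 0.22, 95% interval 0.93 to 1.92), a 2.68-fold rise, with an edgeR adjusted p of 0.00343. The call held without each of the 6 libraries, at an edgeR adjusted p of 0.0198 or less. Per kilobase of mRNA, Ctsl ranked second of the 35 in iD1 livers, at 217 CPM per kb, and 6th in vehicle livers, at 80.9 CPM per kb. Exons of Ctsl share 1742 bases with the antisense gene Gm47123 and 395 bases with a processed pseudogene on the same strand in GENCODE M21, and no source used here states whether the counting used strand.

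Ctsa (ENSMUSG00000017760, chromosome 2 from 164832873 to 164841032) had 92.6, 94.7 and 106 CPM in iD1 livers, against 69.3, 79.8 and 68.7 CPM in vehicle livers. The groups did not overlap, and the log2 fold change was 0.43 (SE 0.12, edgeR adjusted p = 0.0362). The call was lost without any 1 library other than iD1 replicate 1, with edgeR adjusted p values of 0.0509 without vehicle replicate 2, 0.102 without vehicle replicate 1, 0.140 without the unnumbered vehicle replicate, 0.0690 without iD1 replicate 2 and 0.136 without iD1 replicate 3. The call of Ctsa was also lost with upper-quartile factors (edgeR adjusted p = 0.0665), with no filter on low counts (0.0537) and with library size only (0.257), where its log2 fold change was 0.22. Exons of Ctsa share 495 bases with Pltp on the other strand, whose log2 fold change was 0.00 (SE 0.60).

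The other 8 peptidases were not called by edgeR with all libraries, while DESeq2 called Ctsz (adjusted p = 0.0300). Ctsz, the carboxypeptidase cathepsin Z, averaged 135 ± 5.67 CPM in iD1 livers and 107 ± 7.06 CPM in vehicle livers (SD, n = 3 each), and Tpp1, a tripeptidyl peptidase, averaged 71.4 ± 5.21 and 54.7 ± 7.86 CPM. In both genes all iD1 libraries lay above all vehicle libraries, with edgeR adjusted p values of 0.0705 for Ctsz and 0.0805 for Tpp1. Ctsf, a cysteine cathepsin, had 16.5, 25.01 and 23.6 CPM in iD1 livers, against 13.3, 17.9 and 17.2 CPM in vehicle livers. Its log2 fold change was 0.43 (SE 0.18, edgeR adjusted p = 0.136), and iD1 replicate 1 lay among the vehicle libraries. Without iD1 replicate 1 the edgeR adjusted p of Ctsf was 0.0259. Ctsh, an aminopeptidase and among the highest of the 35 per length, had 178, 241 and 231 CPM in iD1 livers, against 170, 171 and 194 CPM in vehicle livers. Its log2 fold change was 0.28 (SE 0.15, edgeR adjusted p = 0.234). Here too only iD1 replicate 1 fell within the vehicle range. The aspartic protease gene Ctsd had a log2 fold change of 0.18 (95% interval -0.14 to 0.50), and 808 bases of its exons are shared on the same strand with Gm49369, which had 0.10, and how the counting split their reads is unknown. The cysteine proteases Ctsb, Ctsc and Ctss had values below 0, from -0.08 for Ctsc to -0.14 for Ctss, and the interval of each included 0. That of Ctsb ran from -0.41 to 0.19, which leaves out a rise of 1.5-fold. Exons of Ctsb share 774 bases with Fdft1 on the other strand. Among the vehicle libraries Ctss, a protease of antigen-presenting cells, spread most of the 35 genes, with a coefficient of variation of 29.8%.

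**Figure D2:**
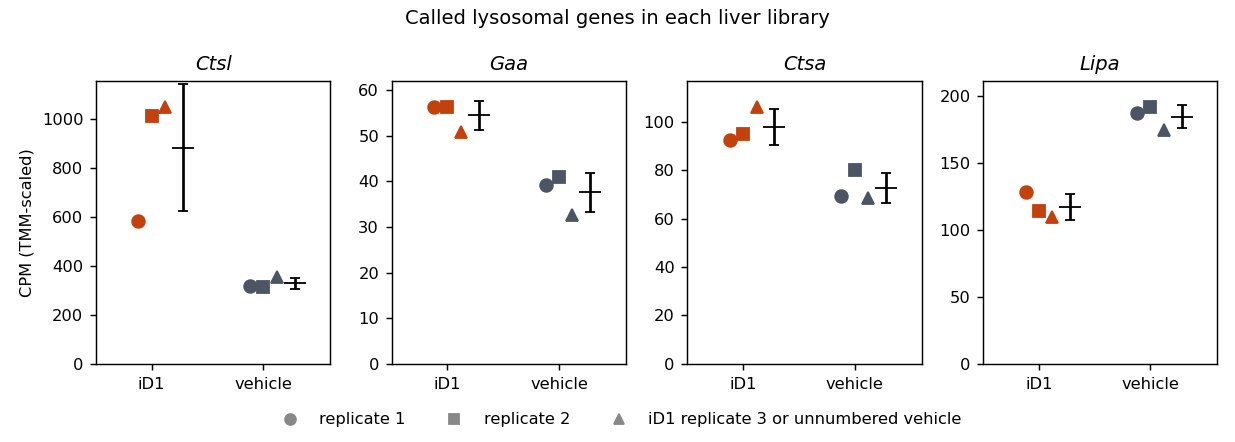
Levels in CPM (y axis, TMM-scaled, from 0) of Ctsl, Gaa, Ctsa and Lipa in each iD1 and vehicle library, with symbols for the replicate and, beside them, the mean with an SD bar over 3 libraries. The groups do not overlap in any of the 4 panels, and iD1 replicate 1 of Ctsl, at 584 CPM, lies well under the other iD1 libraries.

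Among the glycan and glycosaminoglycan hydrolases, Gaa (ENSMUSG00000025579, chromosome 11 from 119267887 to 119285454) had 56.3, 56.2 and 50.7 CPM in iD1 livers, against 39.1, 40.9 and 32.7 CPM in vehicle livers. No iD1 library came down to the vehicle range. The log2 fold change was 0.53 (SE 0.12, 95% interval 0.26 to 0.81), a 1.45-fold rise, with an edgeR adjusted p of 0.0178. Leaving out the unnumbered vehicle replicate ended the call (edgeR adjusted p = 0.0807), as did leaving out iD1 replicate 2 (0.0519). So did scaling by library size only, with a log2 fold change of 0.33 and an edgeR adjusted p of 0.154.

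The other 12 of these 13 hydrolases were not called by edgeR with TMM factors. Idua encodes an enzyme that acts in the breakdown of dermatan and heparan sulfate. It had 3.14, 3.27 and 4.92 CPM in iD1 livers, against 3.03, 2.39 and 2.08 CPM in vehicle livers. The groups did not overlap, though iD1 replicate 1 and vehicle replicate 1 lay close together, and the log2 fold change was 0.59 (SE 0.24, edgeR adjusted p = 0.129). Sgsh, the heparan N-sulfatase, lay the other way, with 2.46, 3.27 and 2.42 CPM in iD1 livers, against 4.26, 3.81 and 3.55 CPM in vehicle livers. All 3 iD1 libraries were under all 3 vehicle libraries, and the log2 fold change was -0.50 (SE 0.20, edgeR adjusted p = 0.116). With library size only, Sgsh was called lower, at an edgeR adjusted p of 0.0437. Its estimated counts ran from 52 to 158 per library, and its exons share 955 bases with Card14 on the other strand. Hexa, a subunit of the hexosaminidase that degrades GM2 ganglioside, averaged 33.3 ± 3.58 CPM in iD1 livers and 25.1 ± 2.25 CPM in vehicle livers (SD, n = 3 each), without overlap, and had the smallest edgeR adjusted p of the genes not called, 0.0545. DESeq2 called Hexa, at an adjusted p of 0.0412. Gusb, the beta-glucuronidase, averaged 28.1 ± 1.17 and 23.4 ± 1.24 CPM, also without overlap (edgeR adjusted p = 0.126). In Arsa, Arsb, Gla, Glb1, Ids, Man2b1, Naglu and Neu1 the groups overlapped, with log2 fold changes from -0.18 for Ids to 0.33 for Arsa. Naglu, whose product also acts on heparan sulfate, was at 0.03 (95% interval -0.31 to 0.36).

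Of the lipid hydrolases and their cofactors, Lipa (ENSMUSG00000024781, chromosome 19 from 34492318 to 34527474) had 128, 114 and 109 CPM in iD1 livers, against 187, 192 and 175 CPM in vehicle livers. Every iD1 library lay well under the vehicle range. The log2 fold change was -0.65 (SE 0.12, 95% interval -0.92 to -0.38), with an edgeR adjusted p of 0.00723, and Lipa stayed called without each of the 6 libraries, at an edgeR adjusted p of 0.0383 or less. Psap, the precursor of the saposins that present sphingolipids to their hydrolases, had 286, 264 and 292 CPM in iD1 livers, against 221, 255 and 208 CPM in vehicle livers. Those groups did not overlap by a small margin, and the log2 fold change was 0.30 (SE 0.13, edgeR adjusted p = 0.158). The ceramidase gene Asah1, the sphingomyelinase gene Smpd1 and the thioesterase gene Ppt1 had log2 fold changes of 0.07, 0.19 and 0.19, with overlapping groups.

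Of the 7 genes for membrane proteins and cholesterol export, 0 were called by edgeR, against 16.7% of all tested genes, and Npc1 was called by DESeq2. An unadjusted p under 0.05 was found for 2 of the 7, Mcoln1 and Npc1, beside 4293 of all 13718 tested genes, a share near the background. All 7 values were above 0. Lamp1, a major glycoprotein of the lysosomal membrane and the highest of the 35 genes per length in both groups, had 481, 497 and 529 CPM in iD1 livers, against 424, 429 and 435 CPM in vehicle livers. The vehicle libraries lay close together, with a coefficient of variation of 1.25%, and all 3 iD1 libraries lay above them. Its log2 fold change was 0.23 (95% interval -0.07 to 0.52, edgeR adjusted p = 0.271). Lamp2, its partner, which also acts in chaperone-mediated autophagy, had 461, 521 and 521 CPM in iD1 livers, against 446, 460 and 513 CPM in vehicle livers. These groups overlapped, and the log2 fold change of 0.08 (95% interval -0.23 to 0.40) became -0.12 with library size only.

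Npc1, which exports cholesterol from lysosomes, had 70.7, 61.4 and 107 CPM in iD1 livers, against 40.5, 64.4 and 49.1 CPM in vehicle livers. Vehicle replicate 2 exceeded iD1 replicate 2, and the log2 fold change was 0.64 (SE 0.24, edgeR adjusted p = 0.114). Npc2, the soluble protein that hands cholesterol to Npc1, averaged 51.5 ± 3.16 CPM in iD1 livers and 48.6 ± 4.27 CPM in vehicle livers (SD, n = 3 each). Mcoln1, a calcium channel of the lysosomal membrane, averaged 27.8 ± 2.77 CPM in iD1 livers and 22.1 ± 1.19 CPM in vehicle livers, without overlap (edgeR adjusted p = 0.0854). The log2 fold change was 0.31 for Scarb2, the receptor that carries beta-glucocerebrosidase to lysosomes, and 0.15 for the tetraspanin gene Cd63, which was low at 1.73 to 3.75 CPM in iD1 livers and 2.06 to 2.70 CPM in vehicle livers.

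**Figure D3:**
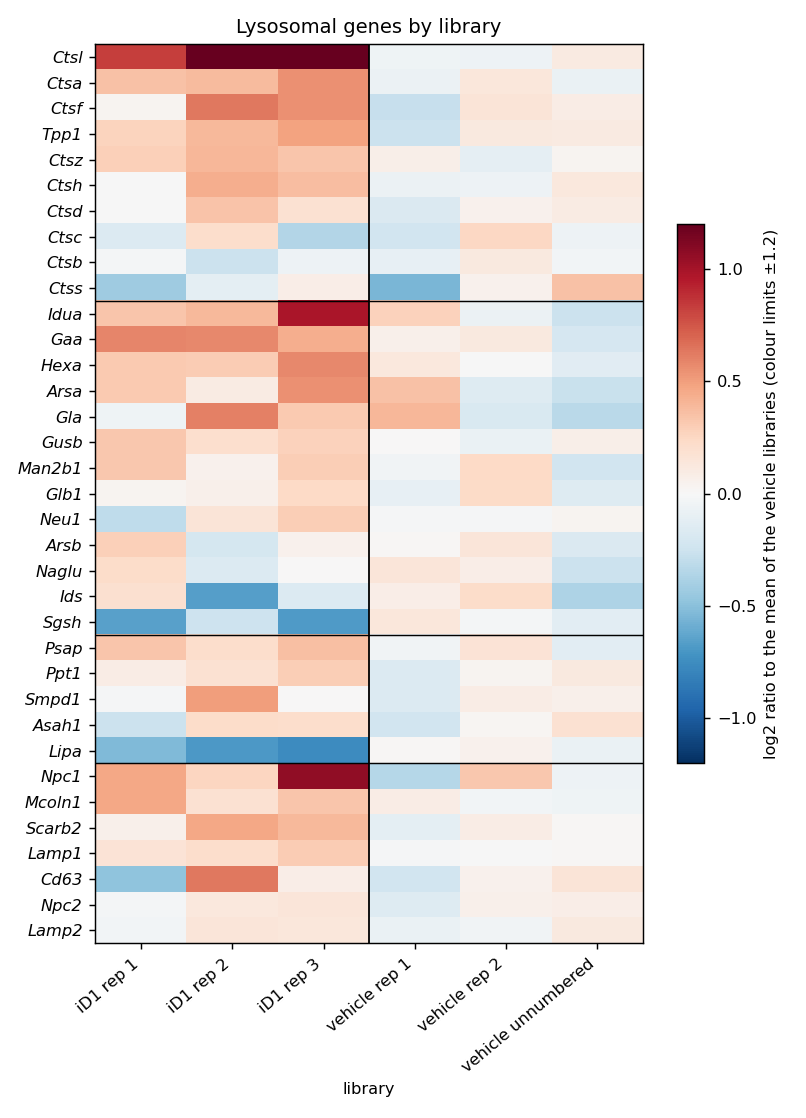
Log2 ratio of each gene's CPM to the mean of the vehicle libraries (colour, limits ±1.2, which Ctsl exceeds in iD1 replicates 2 and 3), with the 35 genes in rows by role and the 6 libraries in columns, iD1 left of vehicle. The median over the 35 genes is 0.09, 0.21 and 0.30 in iD1 replicates 1, 2 and 3, against -0.05, 0.05 and -0.03 in vehicle replicates 1 and 2 and the unnumbered vehicle replicate.

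The standard errors of the 35 log2 fold changes ran from 0.11 to 0.29. Of the 31 genes not called, 15 had a 95% interval that lay within a 1.5-fold change either way and 29 within 2-fold. The iD1 libraries differed from each other in these genes: iD1 replicate 1 was the lowest iD1 library in 20 of the 35, and in 19 of the 29 with a log2 fold change above 0. The same count was not taken over all tested genes. Over those genes iD1 replicate 1 also lay nearest to vehicle on the first principal component, so this need not be particular to the 35. Without iD1 replicate 1 the median log2 fold change of the 35 genes was 0.26, and without iD1 replicate 2 it was 0.19. The summed level of the 35 genes was 3617, 4242 and 4383 CPM in iD1 livers, against 3060, 3295 and 3260 CPM in vehicle livers. Without Ctsl the sums ran from 3033 to 3331 CPM in iD1 livers and from 2742 to 2978 CPM in vehicle livers, and the median log2 fold change of the other 34 genes was 0.21. The 10 genes with the heptamer TCACGTG in their window had a median log2 fold change of 0.27, with 2 called (Gaa and Ctsa). The 21 with a window that lacks it had 0.19, with 2 called (Ctsl and Lipa). Over all tested genes 16.7% were called. Of the 6 fits that leave out 1 library, Gaa was called in 4 and Ctsa in 1, while Ctsl and Lipa were called in all 6. The difference between these medians was not tested, and no median was taken over the 691 tested genes with the heptamer. The printed bases of Ctsl, and of the heptamer genes Ctsa and Ctsd, lay inside the genes rather than before their outer GENCODE starts.

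Of 28 further tested lysosomal hydrolases and cofactors, 5 rose (17.9%, against 8.42% of all tested genes) and 3 fell (10.7%, against 8.30%), and the median log2 fold change was 0.15. The 4 smallest p-values belonged to Pla2g15, a lysosomal phospholipase, with 7.01, 5.08 and 5.99 CPM in iD1 livers, against 9.68, 11.7 and 10.9 CPM in vehicle livers, and to Acp2, Plbd2 and Manba. Acp2, the lysosomal acid phosphatase, and Manba, the beta-mannosidase, fell by 0.57 and 0.68 on the log2 scale, while Plbd2 rose by 0.77. The call of Manba was lost without iD1 replicate 3 (edgeR adjusted p = 0.0510), and that of Plbd2 when iD1 replicate 3 (0.0508) or else the unnumbered vehicle replicate (0.0678) was left out. In all, 8 of these 28 were called with all libraries, 3 without the unnumbered vehicle replicate, 2 without iD1 replicate 3, and 5 without vehicle replicate 1, vehicle replicate 2 or iD1 replicate 2. The same fits also called fewer of all tested genes, 2293 with all libraries, 1212 without the unnumbered vehicle replicate, 1231 without iD1 replicate 3, and 1308 to 1509 without vehicle replicate 1, vehicle replicate 2 or iD1 replicate 2.

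Of 28 tested membrane proteins and transporters outside the 35, 5 rose (17.9%, against 8.42% of all tested genes) and 3 fell (10.7%, against 8.30%), and the median log2 fold change was 0.17. Slc36a1, a proton-coupled amino acid exporter, had 11.7, 8.58 and 7.89 CPM in iD1 livers, against 23.0, 22.2 and 18.3 CPM in vehicle livers, a log2 fold change of -1.17 (SE 0.17, edgeR adjusted p = 0.00226). The transporter gene Abca2 fell by 0.96 on the log2 scale, and Abcd4, which acts in cobalamin release, rose by 0.79. These 3 calls held without each of the 6 libraries. Glmp rose by 0.50, a call kept only without iD1 replicate 1 or iD1 replicate 2 among the fits that leave out 1 library (edgeR adjusted p up to 0.0779 in the others). In this list 8 genes were called with all libraries and 5 without iD1 replicate 2, 4 without vehicle replicate 1, and 3 when vehicle replicate 2, iD1 replicate 3 or else the unnumbered vehicle replicate was left out, beside the lower counts over all genes in those fits (1212 to 1509, against 2293).

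Among 18 V-ATPase subunits and accessory proteins 4 rose (22.2%, against 8.42% of all tested genes) and 1 fell (5.56%, against 8.30%). Their median log2 fold change was 0.32, and 16 values were above 0 (88.9%, against 50.1%). Atp6v0c, the proteolipid of the membrane rotor, had 117, 108 and 109 CPM in iD1 livers, against 72.8, 86.7 and 74.6 CPM in vehicle livers. The accessory gene Atp6ap2 rose by 0.47 on the log2 scale and Atp6v1e1, of the catalytic sector, by 0.52. Tcirg1, an a subunit best known from osteoclasts, fell by 0.40. None of these 4 kept its call without each library: Atp6v0c and Atp6ap2 were called in 3 of the 6 fits that leave out 1 library, Atp6v1e1 in 1 and Tcirg1 in 0, at edgeR adjusted p values up to 0.0873, 0.0655, 0.154 and 0.107. The count called was 1 without either numbered vehicle library, 2 without iD1 replicate 2, and 0 when iD1 replicate 3 or else the unnumbered vehicle replicate was left out, again in fits that called 1212 to 1509 of all genes, against 2293.

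Of 28 tested identifiers for the delivery of enzymes to lysosomes, which stand for 27 genes since Hgs has 2, 3 rose (10.7%, against 8.42% of all tested genes) and 1 fell (3.57%, against 8.30%), the higher share being near the background. The median log2 fold change was 0.13. Cln8, an endoplasmic reticulum receptor that helps lysosomal enzymes leave for the Golgi, had 32.1, 41.1 and 45.5 CPM in iD1 livers, against 18.9, 19.7 and 22.0 CPM in vehicle livers. Its log2 fold change was 0.97 (SE 0.15, edgeR adjusted p = 0.00287). Cln6, which works with Cln8, was low but had 2.14, 4.21 and 3.81 CPM in iD1 livers, against 1.23, 0.844 and 0.766 CPM in vehicle livers, a log2 fold change of 1.84 (SE 0.32, edgeR adjusted p = 0.00527). Both calls held without each of the 6 libraries. Vps18 rose by 0.47 and Gga3 fell by 0.56 on the log2 scale, calls that each stayed only without iD1 replicate 1, and the count called was 2 without any 1 of the other 5 libraries, where 1212 to 1509 of all genes were called.

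Of 24 tested genes of the TFEB family and of lysosomal mTORC1 control, 2 rose (8.33%, against 8.42% of all tested genes) and 1 fell (4.17%, against 8.30%), shares at or under the background, and the median log2 fold change was 0.10. Flcn, which encodes folliculin, had 18.5, 24.5 and 27.8 CPM in iD1 livers, against 9.75, 8.63 and 9.01 CPM in vehicle livers. Its partner Fnip1 had 35.4, 34.95 and 43.3 CPM in iD1 livers, against 21.2, 20.9 and 21.2 CPM in vehicle livers. The log2 fold changes were 1.37 for Flcn (SE 0.16, edgeR adjusted p = 8.68e-04) and 0.84 for Fnip1 (SE 0.12, edgeR adjusted p = 0.00227), and both calls held without each of the 6 libraries. Folliculin and its partner regulate the Rag GTPases that hold mTORC1 and the TFEB family at the lysosome. Depdc5, a subunit of a complex that restrains mTORC1, fell by 0.57, a call that stayed only without iD1 replicate 2 (edgeR adjusted p up to 0.0856 without 1 of the others).

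**Figure D4:**
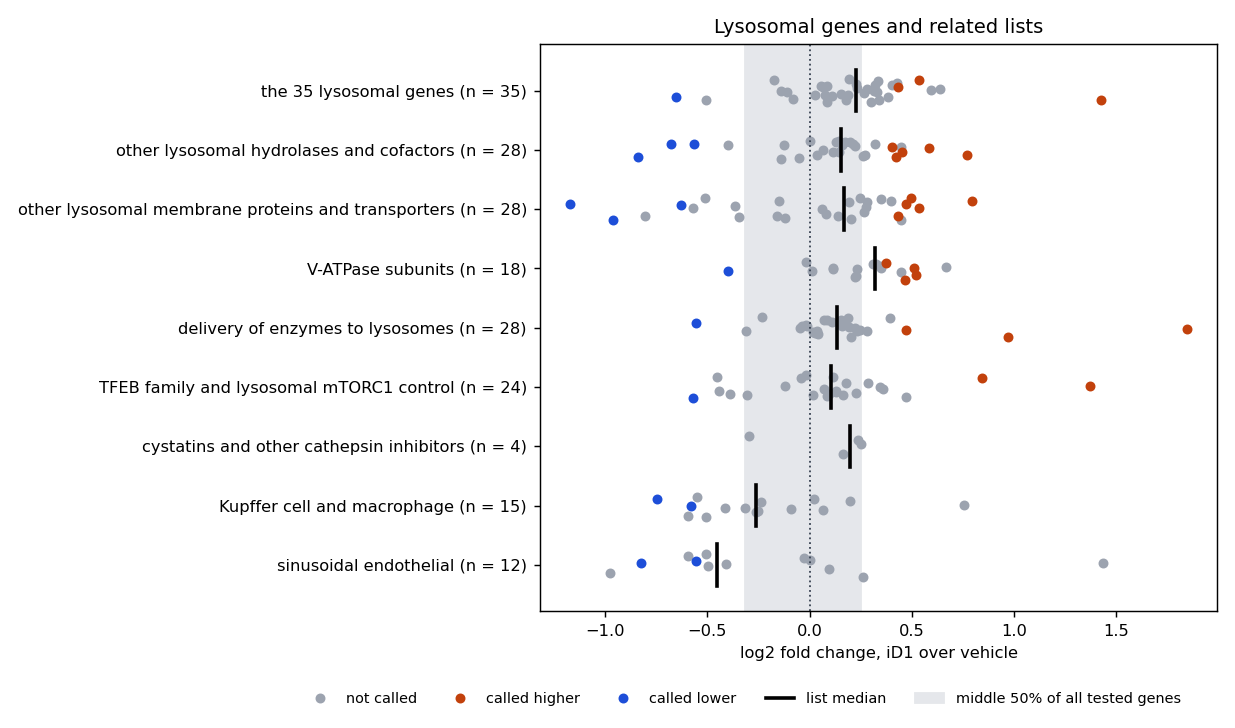
Log2 fold change of iD1 over vehicle (x axis) for the 35 lysosomal genes, 6 related lists and 2 lists of markers of other liver cells (rows, with the number of tested genes), with a point for each gene, coloured where called, and a black bar for the list median. The shaded band from -0.32 to 0.25 holds the middle 50% of all tested genes, and 16 of the 35 lysosomal genes lie above it, 17 inside and 2 below.

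In whole liver, fewer cells of a type and less RNA per cell cannot be told apart. Of 15 Kupffer cell and macrophage markers 2 were lower (13.3%, against 8.30% of all tested genes) and 0 higher (against 8.42%). Their median log2 fold change was -0.26, and their summed level was 288 to 351 CPM in iD1 livers and 303 to 456 CPM in vehicle livers. The 2 lower were Slc40a1 and Cybb, while 4 of the 15 had values above 0, among them Marco, whose groups did not overlap (log2 fold change 0.76, edgeR adjusted p = 0.0514). The defining markers Clec4f and Vsig4 were present in all libraries, at means of 43.2 and 12.8 CPM in iD1 livers and 53.8 and 19.3 CPM in vehicle livers. Of 12 sinusoidal endothelial markers 2 were lower (16.7%, against 8.30% of all tested genes) and 0 higher. Their median was -0.45, with summed levels of 233 to 303 CPM in iD1 livers and 284 to 383 CPM in vehicle livers. Of 5 tested neutrophil markers 3 were higher (60.0%, against 8.42% of all tested genes) and 0 lower. Their summed levels were 3.99 to 12.1 CPM in iD1 livers and 1.42 to 1.96 CPM in vehicle livers. Of 10 stellate cell markers 1 was lower, Lrat (log2 fold change -1.77), and 0 higher. The share lower was 10.0%, near the 8.30% of all tested genes. Summed levels of the 10 were 247 to 326 CPM in iD1 livers and 244 to 336 CPM in vehicle livers. Of 5 tested cholangiocyte markers Krt19 was lower (-2.65) and Sox9 higher (0.85), which is 20.0% each way, against 8.30% and 8.42%. Their summed levels were 27.97 to 45.5 CPM in iD1 livers and 22.9 to 36.5 CPM in vehicle livers. The 4 tested lymphocyte markers had log2 fold changes from -1.05 for Cd4 (edgeR adjusted p = 0.0552) to 0.07 for Cd3d. Of 12 hepatocyte markers 4 were higher (33.3%, against 8.42% of all tested genes), namely Tat, Cyp2e1, Hnf4a and Apoa1, and the median log2 fold change of the 12 was 0.28. The part of these cell types in the values of Lipa, Ctss and the other lysosomal genes was not tested.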

How the data were processed

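The authors deposited a gene table of estimated counts without depth scaling. Per the labels' protocols, liver RNA was isolated with TRIzol and RNeasy and sequenced from stranded mRNA libraries. Aligner, quantifier, build and annotation: not given in the sources used here. Of each library's values, 22.5% to 27.7% were not whole. Estimates of this kind can share reads between overlapping genes.

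Counts were rounded to whole numbers. Symbols were found for 34582 of 34866 identifiers. Genes were kept by filterByExpr (minimum count 10, minimum total 15), libraries were scaled by TMM (factors 0.878 to 1.11), and iD1 was compared with vehicle by the robust quasi-likelihood F test of edgeR 4.0.16 in R 4.3.3, which is two-sided, with Benjamini-Hochberg adjustment over 13718 genes and a threshold of 0.05. The SE is the log2 fold change divided by the square root of F. Levels per kilobase use the mean length of the principal transcripts in GENCODE M21. On data simulated from these libraries over 13718 genes, 74.0% of genes changed 2-fold and 97.0% of genes changed 4-fold were called, beside 16 of 13298 unchanged genes. An exact permutation test of 3 against 3 libraries cannot go under 0.1.

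The genes, lists and alternatives were chosen with earlier results of these data known. Named beyond the called genes are, among the 35, the 4 highest per length and the 4 with the largest change, and of each related list up to 4 called genes by smallest p, or 2 by value. Further genes among the 35 were described after their values were seen. As alternatives, the scaling factors, the filter and the tool (DESeq2 1.42.0, or voom in limma 3.58.1) were changed, a replicate block was added and each library was left out. The chi-square of counts per degree of freedom between pairs of libraries was 38.4 or more, so none was counted as a duplicate.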

Additional observations from a re-analysis of the deposited data

How the results depend on the processing

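Between 1 and 4 of the 35 genes were called higher, 1 lower, without 1 library, and from 1212 to 2574 of all genes, against 2293 with all libraries (1212 without the unnumbered vehicle replicate, 1231 without iD1 replicate 3, 1308 without vehicle replicate 2, 1484 without vehicle replicate 1, 1509 without iD1 replicate 2). The median log2 fold change of the 35 genes was 0.022 with library size only, where 1 gene was called higher and 2 lower, Lamp2 turned to -0.12, and 24.1% of all calls were higher (38.4% with upper-quartile factors, 50.4% with TMM). DESeq2 called 6 of the 35 higher, adding Ctsz, Hexa and Npc1. In 12 named genes of the 35, the call and direction stayed as reported in 138 values from alternatives, and the call was lost in 14 and gained in 3. Of the further hydrolases, 5 were called with upper-quartile factors, 4 with library size only and 2 to 9 without 1 library. Of the V-ATPase list, 3 were called with upper-quartile factors or limma-voom, 1 with library size only and 0 to 4 without 1 library. The main fit called 8 of the further hydrolases and 5 of the V-ATPase list. Over all genes, 2349 were called with upper-quartile factors, 2480 with library size only and 2272 with limma-voom, against 2293 in the main fit. The list of other membrane proteins had 3 to 7 called and the delivery list 2 to 4 without 1 library. Of the cystatin list, 0 of 4 tested genes were called under the alternatives run, and 0 had an unadjusted p under 0.05 in edgeR.

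The labels number replicates in both groups, but only numbers 1 and 2 are shared by columns. Correlations of deviations between libraries of the same number were 0.169 and -0.127. Other pairs of an iD1 and a vehicle library ran from -0.245 to 0.218. This check therefore cannot show whether the numbers pair samples, and the main fit used no pairing. With a replicate block on these 4 libraries 768 genes were called, against 521 without the block, a fit added after the data were seen. Of the 35 genes, 1 was called higher (Ctsl) and 0 lower with the block, and 0 and 0 without it. The block left 0 of the further hydrolases, 1 of the membrane list, 0 of the V-ATPase list, 1 of the delivery list and 1 of the TFEB list called.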

Other observations

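Inhibitors of cathepsins were also measured. Of 9 listed cystatins and related inhibitors 4 were tested and 0 called. Cstb, which encodes cystatin B, an inhibitor of cysteine cathepsins inside cells, had 18.5, 24.3 and 21.9 CPM in iD1 livers, against 18.3, 15.1 and 21.1 CPM in vehicle livers. Its log2 fold change was 0.25 (SE 0.15, edgeR adjusted p = 0.299). Cst3, which encodes the secreted inhibitor cystatin C, had 85.0, 90.2 and 88.0 CPM in iD1 livers, against 78.4, 73.9 and 82.7 CPM in vehicle livers, without overlap and with a log2 fold change of 0.16 (SE 0.11, edgeR adjusted p = 0.337).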
